A study of Mus musculus with 6 samples.

Results

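Rn45s is the mouse gene symbol for the ribosomal RNA precursor, and its 5'-monophosphate ends were read here in 6 tissues. Ends were chosen by position: tags on the plus strand whose first base lies in mm9 chr17:39979001-39986500, with tags also listed at a second location kept and marked. The window held 11651 tags at 460 distinct 5' ends, of 888017 tags and 496758 distinct ends in all. The window, and the pair of ends compared first, were selected on values of these libraries, so their levels are a description and no test was made on them.

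The study applied parallel analysis of RNA ends (PARE) to whole brain, lung, liver, kidney, ovary and spleen of adult BALB-c mice, with no treatment in the labels and 1 library per tissue. PARE ligates an adaptor to RNA 5' ends that carry a single phosphate, selects polyadenylated RNA with oligo(dT), and reads a tag of 20 or 21 nt next to the adaptor. The protocol text names brain, liver or lung as the source of total RNA and does not name the other organs. How many animals gave each library is not given in the sources used here, and the tissue labels were not checked against marker genes, since no mm9 annotation was used.

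RNA polymerase I makes the precursor as one long transcript, with an external transcribed spacer, 18S, an internal spacer, 5.8S, a second internal spacer and 28S, in that order. Nucleases then cut the spacers away, and the early cuts of the external spacer and the cut at the 5' end of 18S need nucleolar ribonucleoproteins such as the one built on U3. The first base of a transcript carries a triphosphate and cannot be ligated in PARE, whereas products of such cuts can carry a monophosphate. Ribosomal RNA made by RNA polymerase I is not polyadenylated as a rule, although nuclear decay intermediates are known to receive short oligo(A) tails.

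The sequences of the ends on which the results turn, assembled from the deposited tags and given on the plus strand of mm9, are as follows. Capitals mark the first 20 nt of the tags that start there, except for the 18S end, where they mark all bases of 18S shown. The spacer sequences were added after their values were seen, as the ends with most tags (of 2 tied, in the internal spacer).
Start end, chr17:39979942-39979978: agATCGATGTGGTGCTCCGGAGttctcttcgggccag
External spacer end, chr17:39982838-39982868: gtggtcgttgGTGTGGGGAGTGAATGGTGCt
18S end, chr17:39983297-39983331: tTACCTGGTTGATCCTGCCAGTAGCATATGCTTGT
18S base 136, chr17:39983423-39983453: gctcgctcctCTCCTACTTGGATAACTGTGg
18S base 234, chr17:39983521-39983551: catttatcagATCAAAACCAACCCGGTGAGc
18S base 844, chr17:39984135-39984161: ggcccgAGCCGCCTGGATACCGCAGCt
18S base 1371, chr17:39984658-39984688: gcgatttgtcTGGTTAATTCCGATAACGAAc
Internal spacer end, chr17:39985738-39985770: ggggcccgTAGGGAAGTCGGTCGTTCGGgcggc

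The end at 39979944, called the start end here because it lies near the first tagged base of the window at 39979941, is 3354 nt before the 18S end at 39983298. No file gives the transcription start, so the place of the start end relative to it was not analysed here. Bases of 18S are counted from the 18S end in the mm9 copy. Its last base was set at 39985146 from the length of 1849 nt that RefSeq's table (GRCm38.p6) gives for Rn18s-rs5, an 18S pseudogene entry. No tag started between 39985116 and 39985318, so any last base inside that gap leaves the counts as they are.

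Depth differed widely. The libraries held 47403 tags in spleen, 31054 in ovary, 520513 in lung, 35186 in brain, 171187 in kidney and 82674 in liver, a read listed at 2 locations counted once, so that lung was 16.8 times as deep as ovary. Levels are given as counts per 1000000 tags of the library (CPM), with exact Poisson 95% intervals. Intervals of ratios are exact conditional binomial and those of shares Clopper-Pearson, and all cover counting error only, since PCR reads without molecular identifiers are not independent molecules. For a count of 0 the interval reached 77.8 CPM in spleen, 118.8 in ovary, 7.09 in lung, 104.8 in brain, 21.5 in kidney and 44.6 in liver. With 1 library per tissue nothing separates a tissue from its library, and in bulk tissue a change in cell makeup and a change per cell cannot be told apart.

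Tags of Rn45s were present in every library. There were 411 in spleen, 463 in ovary, 8240 in lung, 201 in brain, 1492 in kidney and 844 in liver, at 31, 46, 367, 44, 143 and 104 distinct ends. As a level this was 8670.34 CPM in spleen, 14909.5 in ovary, 15830.5 in lung, 5712.5 in brain, 8715.62 in kidney and 10208.8 in liver. Lung and ovary were not distinguishable by counting error (ratio 1.06, 95% interval 0.967 to 1.17), nor were kidney and spleen (1.01, 0.901 to 1.12). Ovary exceeded liver 1.46-fold (1.30 to 1.64), liver exceeded kidney 1.17-fold (1.08 to 1.28) and spleen exceeded brain 1.52-fold (1.28 to 1.81). The full range, lung over brain, was 2.77-fold (2.41 to 3.20). That ratio became 0.940 (0.722 to 1.25) when each distinct sequence was counted once, and 4.38 (3.57 to 5.43) without sequences listed at 2 locations. Leaving those sequences out also changed the order of the middle libraries, to 8850 CPM (7982 to 9786) in spleen against 5244 (4751 to 5774) in liver and 4912 (4576 to 5265) in kidney. Scaling by the median ratio over windows instead put kidney at 10934 CPM (10386 to 11503) and spleen at 7313 (6623 to 8056). That scaling left no excess of ovary, at 12231 CPM (11142 to 13398), over liver, at 12364 (11544 to 13227). It put brain at 6570 CPM (5693 to 7544), an interval that overlaps that of spleen. Lung over ovary turned to 0.726 (0.564 to 0.947) with each distinct sequence counted once. The tags made up 0.571% of the brain library and 1.58% of the lung library, at either end of the range. Reads of the opposite strand in the window were nearly absent, with 1 tag in lung, 1 in kidney and 0 in the other 4 libraries.

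**Figure D1:**
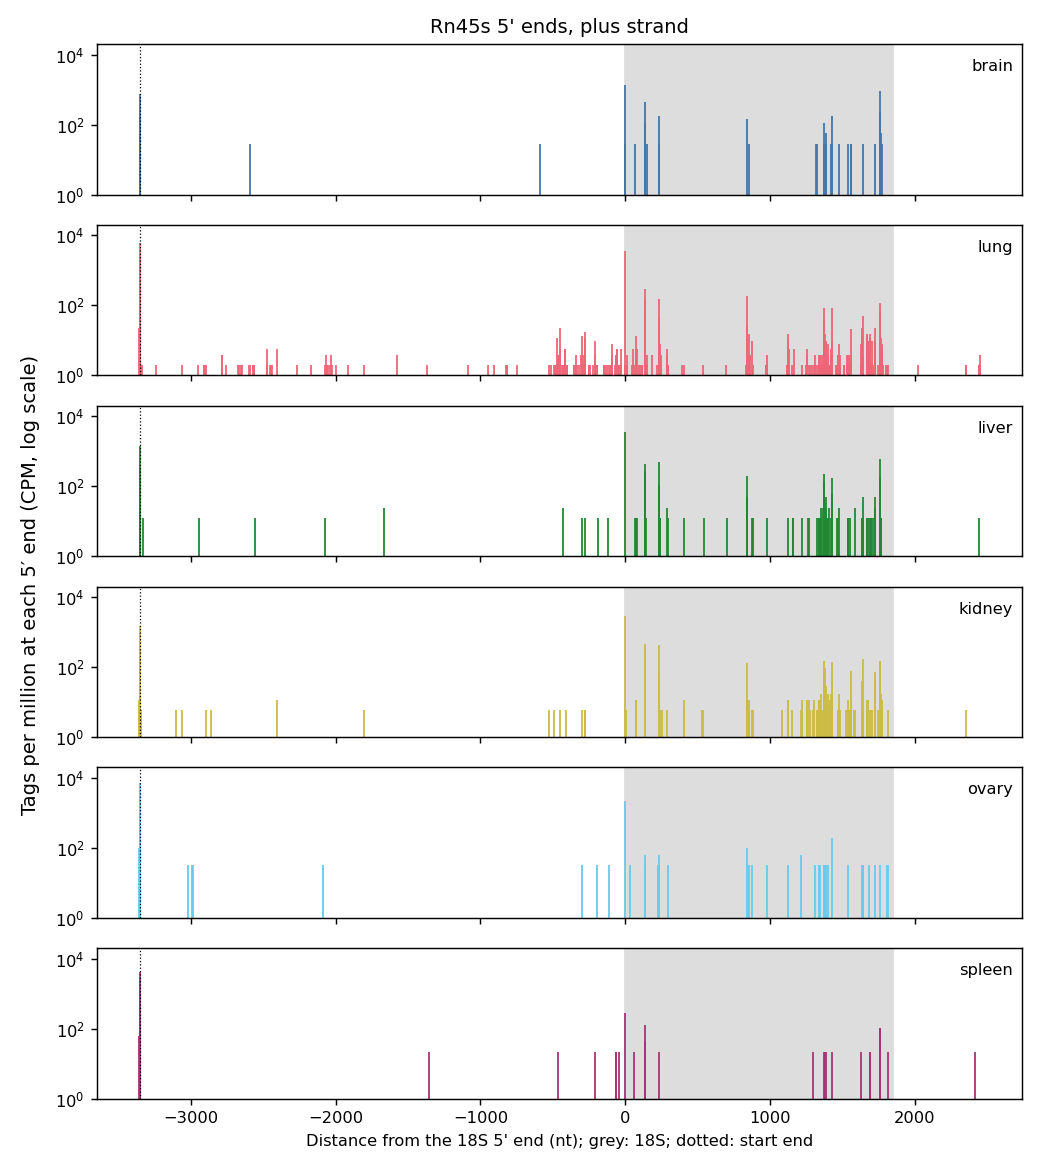
Level in CPM at each 5' end of Rn45s (log axis) against distance from the 18S end in nt, 1 panel per tissue library, with 18S in grey and a dotted line at the start end. The lowest bars are single tags, whose height depends on library depth. The tall bars at the dotted line and at 0 recur in every panel, the ends inside 18S recur at a few positions, and 141 of the 164 ends of the external spacer appear in the lung panel.

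The start end gave the most tags of the Rn45s positions, 4024 in all. It had 204 tags in spleen, 228 in ovary, 3195 in lung, 26 in brain, 252 in kidney and 119 in liver. The level was 6138 CPM (5927 to 6355) in lung, 7342 (6420 to 8359) in ovary and 4304 (3733 to 4936) in spleen, against 1472 (1296 to 1666) in kidney, 1439 (1192 to 1722) in liver and 739 (483 to 1083) in brain. The first 3 libraries lay above the other 3 with no overlap of intervals. The step between them, spleen over kidney, was 2.92-fold (2.42 to 3.53). Scaling by the median ratio over windows narrowed it, to 3630 CPM (3149 to 4164) in spleen and 1847 (1626 to 2089) in kidney, still without overlap. Within the upper group ovary over lung was 1.20 (1.04 to 1.37) and lung over spleen 1.43 (1.24 to 1.65). Within the lower group kidney and liver were not distinguishable (1.02, 0.819 to 1.28), while liver over brain was 1.95 (1.27 to 3.10). Ovary over brain was 9.94-fold (6.61 to 15.5). With each distinct sequence counted once it was 3.49-fold (0.870 to 20.0), on 9 sequences in ovary and 3 in brain. Sequences at 1 end differ only in length or by a base change, so that value counts tag variants. All 4024 tags were listed at this 1 location. Among all ends of its own library the start end ranked 4 in spleen, 4 in ovary, 3 in lung, 24 in brain, 16 in kidney and 21 in liver.

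The start end was a cluster rather than a single base. Ends within 10 nt of it held 6188 tags at 9 positions, or 53.1% of the Rn45s tags. The base before it, at 39979943, had 136 tags in spleen, 98 in ovary, 1445 in lung, 6 in brain, 56 in kidney and 27 in liver. Its share of the cluster was 38.2% (33.1 to 43.5) in spleen, 29.2% (27.9 to 30.5) in lung, 28.4% (23.7 to 33.5) in ovary, 17.1% (6.56 to 33.6) in brain, 16.7% (12.9 to 21.2) in kidney and 16.7% (11.3 to 23.3) in liver. The libraries with a high level at the start end were therefore also those with the larger share 1 nt upstream, although the brain interval overlaps theirs. The start end itself held from 57.3% (52.0 to 62.5) of the cluster in spleen to 75.2% (70.2 to 79.8) in kidney. The base after it, at 39979945, held from 3.37% in spleen to 9.88% in liver. As a level, the end at 39979943 was not distinguishable between neighbours among ovary (3156 CPM), spleen (2869) and lung (2776), and lung exceeded kidney (327) 8.49-fold (6.50 to 11.3). Scaling by the median ratio over windows, not applied at this end, lowers levels in lung and raises those in kidney, so it would narrow that step.

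**Figure D2:**
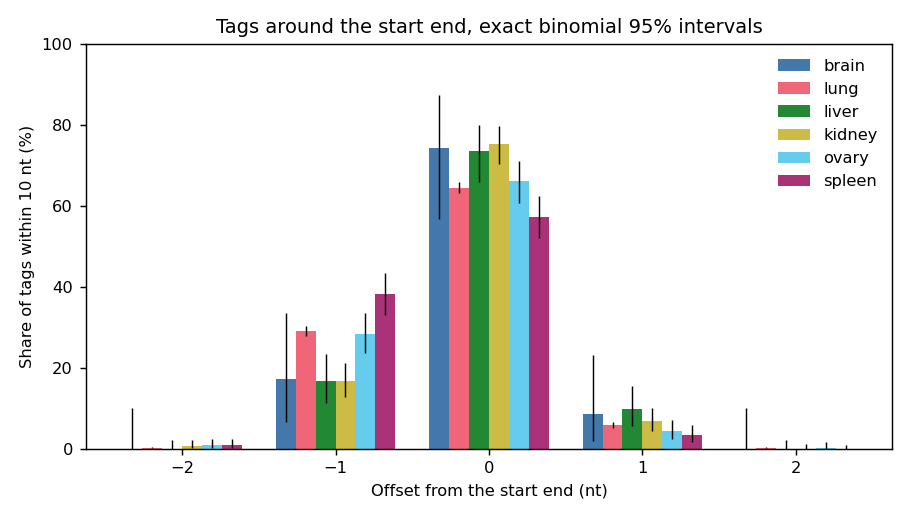
Share of the tags within 10 nt of the start end (%) by offset in nt, with 1 bar per tissue library and exact binomial 95% intervals. The bars at 0 range from 57.3% in spleen to 75.2% in kidney, and those at -1 from 16.7% in liver to 38.2% in spleen.

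The 18S end, where the mature small subunit RNA begins, gave 2765 tags, each of which was also listed on the minus strand of chromosome 16. They numbered 13 in spleen, 68 in ovary, 1852 in lung, 47 in brain, 484 in kidney and 301 in liver. The level was 274 CPM (146 to 469) in spleen, 3558 (3398 to 3724) in lung, 2190 (1700 to 2776) in ovary, 1336 (981 to 1776) in brain, 2827 (2581 to 3091) in kidney and 3641 (3241 to 4076) in liver. Spleen was the low library: brain, next above it, was 4.87-fold higher (2.59 to 9.81) and liver 13.3-fold higher (7.65 to 25.2). With each distinct sequence counted once, liver over spleen was 2.32 (0.463 to 22.4), on 8 sequences in liver and 2 in spleen, again tag variants. Liver and lung were not distinguishable (1.02, 0.903 to 1.16), although scaling the libraries by the median ratio over windows made that ratio 1.50 (1.32 to 1.69). Lung over kidney was 1.26 (1.14 to 1.39), kidney over ovary 1.29 (from just above 1 to 1.69) and ovary over brain 1.64 (1.11 to 2.43). With the median ratio scaling the order of lung and kidney turned, to 2943 CPM (2810 to 3080) in lung and 3547 (3238 to 3877) in kidney. The same scaling left the intervals of ovary, at 1796 CPM (1395 to 2277), and brain, at 1536 (1129 to 2043), overlapping. Among the ends of its library the 18S end ranked 270 in spleen, 12 in ovary, 8 in lung, 14 in brain, 6 in kidney and 8 in liver.

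Unlike the start end, the 18S end was a single base. Of the 2771 tags within 10 nt of it, 99.8% (99.5 to 99.9) started exactly there. The exact share was 100% in liver, ovary and spleen and lowest in brain, at 97.9% (88.9 to 99.9), where 1 tag of 48 started 1 nt upstream. The start end held 65.0% (63.8 to 66.2) of its own cluster by the same measure.

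**Figure D3:**
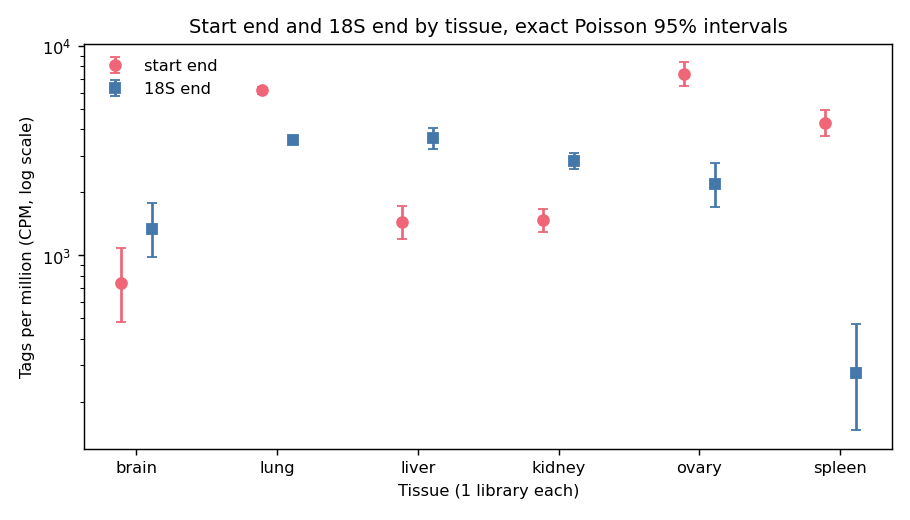
Level of the start end (circles) and the 18S end (squares) in CPM (log axis) in the 6 tissue libraries, with exact Poisson 95% intervals. The circle lies above the square in lung, ovary and spleen and below it in brain, liver and kidney, and the spleen square, at 274 CPM, is the lowest point.

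The ratio of the 2 ends inside a library does not depend on its scaling. The start end had 15.7 times the tags of the 18S end in spleen (8.97 to 30.0), 3.35 times in ovary (2.55 to 4.46) and 1.73 times in lung (1.63 to 1.83). The ratio was 0.553 (0.329 to 0.912) in brain, 0.521 (0.445 to 0.608) in kidney and 0.395 (0.317 to 0.490) in liver. Thus 3 libraries held more start ends and 3 held more 18S ends, and no interval included 1. Between neighbours in that order, spleen exceeded ovary 4.68-fold (2.46 to 9.49), ovary exceeded lung 1.94-fold (1.47 to 2.60) and lung exceeded brain 3.12-fold (1.88 to 5.26). Brain and kidney were not distinguishable (1.06, 0.616 to 1.80), and kidney over liver was 1.32 (1.01 to 1.73). Counting tags within 2 nt of each end moved the ratio to 2.67 in lung, 5.07 in ovary and 27.3 in spleen, and in brain to 0.729 (0.458 to 1.15), an interval that includes 1. At a single end, distinct sequences differ only in tag length or by a base change. Counting each once therefore counts tag variants and not molecules, and no level is read from it. It left few sequences, and the interval then included 1 in every library but spleen. The ratio was then 1.13 (0.385 to 3.35) in liver, 0.545 (0.166 to 1.61) in kidney, 0.5 (0.0809 to 2.34) in brain, 1.15 (0.706 to 1.87) in lung, 3 (0.749 to 17.2) in ovary and 6 (1.34 to 55.2) in spleen.

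Between these ends lies the external transcribed spacer, which is removed and degraded in the course of maturation. It held few tags: 6 in spleen, 7 in ovary, 217 in lung, 2 in brain, 14 in kidney and 12 in liver, which is 258 tags at 164 ends. As a share of Rn45s tags this was 1.46% (0.538 to 3.15) in spleen, 2.63% (2.30 to 3.00) in lung, 1.51% (0.610 to 3.09) in ovary, 0.995% (0.121 to 3.55) in brain, 0.938% (0.514 to 1.57) in kidney and 1.42% (0.737 to 2.47) in liver. The interval of lung does not overlap that of kidney and overlaps those of the other 4 libraries. With each distinct sequence counted once, both spacers together took 28.4% of Rn45s in lung, 13.2% in spleen and 10.3% in ovary, instead of 2.74%, 1.70% and 1.51%, and 7.48% in liver and 7.25% in kidney, instead of 1.54% and 1.01%. In lung the 226 spacer tags kept 168 sequences, whereas the 3195 start end tags kept 39. The share by sequence therefore depends on depth, and lung is the deepest library. Without sequences listed at 2 locations the share was 3.14% in liver, 1.76% in kidney and 2.13% in brain. By level no neighbours differed beyond counting error, and lung over brain was 7.33-fold (2.01 to 60.9).

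Within the external spacer the tags lay toward 18S. The last 500 nt before the 18S end held 176 tags at 96 ends, of which 155 tags were from lung and 1 brain tag, next to the 18S end, belongs to that end's cluster. The next 500 nt upstream held 10, and the bins beyond it 3, 8, 26 and 28 tags. The end with the most tags, at 39982848, lay at -450 nt from the 18S end and had 12 tags in lung and 1 in kidney. Next came 39983020, at -278 nt, with 9 in lung and 1 in kidney, and 39983000, at -298 nt, with 7 in lung, 1 in liver and 1 in kidney. No end of this spacer was tagged in all libraries, and at the depths of brain, ovary and spleen a single tag is already 28.4, 32.2 or 21.1 CPM. By first base, 17.1% of the 164 ends began with G, against 33.5% of the 1312 spacer bases covered by tags. The share was 47.0% against 36.1% for C, 28.0% against 22.9% for T and 7.93% against 7.47% for A. A lower share of G was not particular to the spacer: in the 18S body it was 19.2% of 271 ends against 28.9% of 1137 covered bases. Of the 164 spacer ends, 141 were tagged in lung, so these shares rest largely on 1 library.

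The body of 18S, from more than 10 nt after its first base to its last, held 2422 tags at 271 ends. Counts were 35 in spleen, 43 in ovary, 1203 in lung, 116 in brain, 657 in kidney and 368 in liver. The level was 738 CPM (514 to 1027) in spleen, 2311 (2182 to 2446) in lung, 1385 (1002 to 1865) in ovary, 3297 (2724 to 3954) in brain, 3838 (3550 to 4143) in kidney and 4451 (4008 to 4930) in liver. This order was not that of the start end: with all listed tags kept, the 3 libraries lowest there were the 3 highest here. Body tags include sequences listed at 2 locations, which made up 53.2% of all Rn45s tags, the 18S end included, in brain and 26.2% in lung. The full body order was not recomputed without them. By the counts of such tags, brain no longer lies above lung in CPM once they are left out, so its place depends on them. Kidney and brain were not distinguishable (1.16, 0.954 to 1.43), and liver over spleen was 6.03-fold (4.26 to 8.79). Over the 6 libraries the body held 131.8 tags per 100 nt, the external spacer 7.74 and the internal spacer 0.886.

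As a share of Rn45s tags, the body took 57.7% (50.6 to 64.6) in brain, 44.0% (41.5 to 46.6) in kidney and 43.6% (40.2 to 47.0) in liver. It took 14.6% (13.8 to 15.4) in lung, 9.29% (6.80 to 12.3) in ovary and 8.52% (6.00 to 11.6) in spleen. The start cluster ran the other way, with 86.6% (82.9 to 89.8) in spleen, 74.5% (70.3 to 78.4) in ovary and 60.1% (59.1 to 61.2) in lung against 22.5% in kidney, 19.2% in liver and 17.4% in brain. These shares add up within a library, so a high share of one zone lowers the others. Set directly against each other, the start cluster had 10.2 times the tags of the body in spleen (7.18 to 14.8) and 0.302 times in brain (0.201 to 0.444). Body tags over 18S end tags ranged from 0.632 (0.421 to 0.940) in ovary and 0.650 (0.604 to 0.699) in lung to 2.47 (1.74 to 3.54) in brain and 2.69 (1.39 to 5.55) in spleen.

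**Figure D4:**
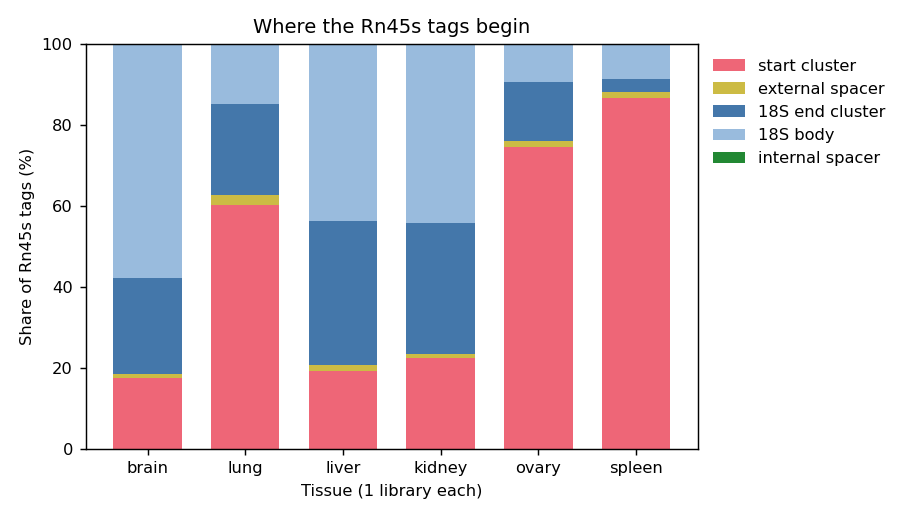
Share of the Rn45s tags (%) that begin in each zone, as stacked bars from 0 for the 6 tissue libraries. The start cluster takes 86.6% in spleen and 17.4% in brain, the 18S body 57.7% in brain and 8.52% in spleen, and by read count both spacers take at most 2.74%, in lung.

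Ends inside 18S recurred at the same bases across libraries. Before the last 100 nt of 18S, the end with the most tags over the libraries was base 136, at 39983433, with 6 tags in spleen, 2 in ovary, 157 in lung, 15 in brain, 76 in kidney and 36 in liver. Its levels in kidney (444 CPM), liver (435), brain (426) and lung (302) differed by less than counting error between neighbours, and lung exceeded spleen (127) 2.38-fold (1.07 to 6.59). The next base, 137, held a further 157 tags, with 2 in spleen, 1 in ovary, 77 in lung, 4 in brain, 51 in kidney and 22 in liver. Bases 135 to 139 were all tagged, so this too was a cluster.

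Base 234, at 39983531, had 0 tags in spleen, 2 in ovary, 80 in lung, 6 in brain, 74 in kidney and 40 in liver. Liver (484 CPM) and kidney (432) were the high libraries, and kidney exceeded brain (171) 2.54-fold (1.11 to 7.13). Base 844, at 39984141, had 0, 3, 95, 5, 22 and 16 tags in the same order of tissues. Its 5 nonzero levels, from 96.6 CPM in ovary to 194 in liver, did not differ beyond counting error between neighbours. Base 1428, at 39984725, had 0 tags in spleen, 6 in ovary, 43 in lung, 6 in brain, 24 in kidney and 14 in liver.

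**Figure D5:**
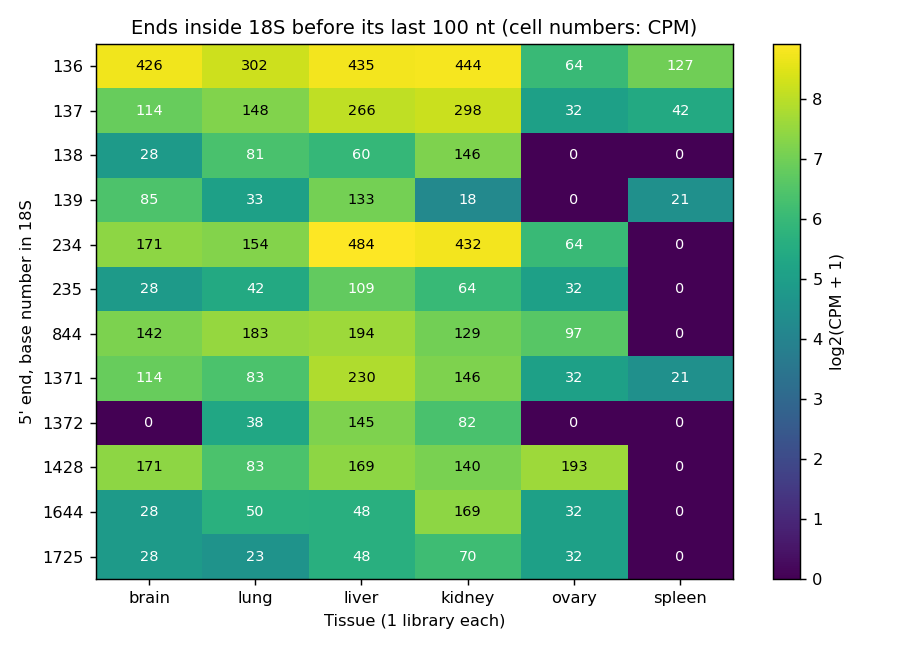
Level of the 12 ends with the most tags inside 18S before its last 100 nt, by base number in 18S and tissue library, coloured by log2(CPM + 1) with the CPM in each cell. Base 234 is brightest, at 484 CPM in liver and 432 in kidney, next to base 136 at 444 in kidney. Spleen holds most of the cells at 0, where the interval still reaches 77.8 CPM.

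The internal spacer after 18S held 12 tags at 10 ends, between 39985318 and 39985751, with 9 in lung, 1 in liver, 1 in kidney, 1 in spleen and 0 in brain and ovary. No difference between tissues was detectable there at this depth. No tag started before 39979941 in the window, and whether the mm9 copy carries precursor sequence upstream of it was not analysed here. The rest of the precursor, with 5.8S and 28S, was also not analysed here.

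Part of the Rn45s signal cannot be assigned to this copy alone. Of the 11651 tags, 3504 belonged to sequences listed at 2 locations, always once on each strand. This was 53.2% of the Rn45s tags in brain, 50.9% in liver, 46.6% in kidney, 26.2% in lung, 17.1% in ovary and 7.54% in spleen. Bases 0 to 119 of 18S (base 0 being the last of the spacer) matched mm9 chr16:18533305-18533424 on the minus strand, which took 80.2% of the 2-location tags. No tag listed at 1 location lay in that stretch of chromosome 16. This did not hold for every second location: chr1:56838932-56839222 on the minus strand, with 2.20% of the 2-location tags, held 80 tags listed at 1 location. At base 1371, 87 of 93 tags belonged to sequences listed at 2 locations. No sequence was listed at 2 locations of the same strand, so stretches of 18S without a tag, the longest of 146 nt between bases 547 and 694, cannot be read as lacking ends.

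Tag length and base changes described the same molecules from another side. Tags of 21 nt made up 24.9% (23.6 to 26.3) of those at the start end and 31.2% (29.5 to 32.9) at the 18S end. The share varied by base inside 18S, with 13.9% (9.41 to 19.4) at base 234 and 93.5% (86.5 to 97.6) at base 1371 as examples. At base 1371 it was 86.0% in lung and 100% in kidney, and at base 234 it was 11.3% in lung, 12.5% in liver and 13.5% in kidney. At these 2 bases only libraries with at least 20 tags are given. Tags that differed from the most frequent base at 1 position made up 3.48% (2.93 to 4.09) of the start end and 2.35% (1.82 to 2.99) of the 18S end. With matching tags included, the start end had 44 distinct sequences and the 18S end 45. No tag differed at more than 1 position. Counted from the tag's first base, the leading change was C16T at the start end, with 19 tags in 4 libraries, and G16A at the 18S end, with 11 tags in 3 libraries.

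Against ends elsewhere in the genome, each library was set against the other 5 pooled, and an end was counted at a CPM ratio of at least 2. Of 2429 ends with at least 20 tags, 24 belonged to Rn45s: the 18S end, 4 of the start cluster and 19 of the body. Among all 2429 ends the share at least 2-fold higher was 19.6% in spleen, 7.41% in ovary, 43.3% in lung, 3.83% in brain, 15.4% in kidney and 18.2% in liver. The Rn45s ends counted as higher were 1 in spleen, 1 in ovary, 3 in lung, 4 in brain, 9 in kidney and 7 in liver. Those of brain, liver and kidney were all in the 18S body, and those of lung, ovary and spleen all in the start cluster. The share of all ends at least 2-fold lower was 62.5% in spleen, 72.8% in ovary, 31.1% in lung, 83% in brain, 68.3% in kidney and 65.9% in liver. The minimum of 20 tags applied to all libraries together, and lung held 520513 of the 888017 tags. An end that passed it but was untagged in a shallow library, such as brain or ovary, counted as lower there. These shares therefore depend on depth, and how much of each reflects a lower level was not tested. The Rn45s ends counted as lower were 17 in spleen, 15 in ovary, 5 in lung, 10 in brain, 5 in kidney and 6 in liver. The window was selected on this contrast, so these counts are given beside the background and nothing is read from them.

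The windows whose level over the 6 libraries was most like that of Rn45s were sought among 750 strand-specific windows of 2 kb, by Pearson's r of log2(CPM + 1). The closest was chr8:109570001-109572000 on the minus strand, with r = 0.940. The next were chr10:61154001-61156000 on the plus strand (0.938), chr7:30972001-30974000 on the minus strand (0.924), chr1:172244001-172246000 on the minus strand (0.923) and chr2:143768001-143770000 on the plus strand (0.923). The points are 6 libraries that also differ in depth, so the values are a description. Rn45s, summed over a window of 7500 nt against 2 kb, had a higher level than the closest of them in every library. It had 15830.5 against 622 CPM in lung and 5712.5 against 227 CPM in brain.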

How the data were processed

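PARE tags of 6 mouse tissue libraries were used. Tags had been aligned with Bowtie to mm9, per the submitters' processing notes. For its version and mismatch setting, nothing was given in the sources used here. A line of a deposited table holds a distinct tag sequence with location, strand and, in the name field, the read count, per the labels; these counts were used. The deposited score is a display value and was not used. A tag's first base was counted from 1. A sequence listed at 2 locations was counted once in a library's total and kept in the window.

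The members and lists were chosen with earlier results of these data known. Named ends were the start end, the 18S end and other ends with at least 20 tags in all or 5 in 1 library, limited to 25 by total, of 60 that qualified. Zones used a margin of 10 nt around both ends. Levels, intervals and ratios were computed in Python 3.11.15 with scipy 1.17.1 and tested on simulated data. No test between tissues was possible with 1 library each. Alternatives were the handling of 2-location sequences, other scalings, counting each sequence once and wider ends. A list of ribosome synthesis genes needed an mm9 annotation and was not analysed here. Single ends near the end of 18S are not reported here.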

Additional observations from a re-analysis of the deposited data

How the results depend on the processing

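Of 80 recomputed values that answer a comparison, 52 stayed within their counting interval (for a share of ends called, within the allowed fold). Another 26 moved further and 2 that lay beyond counting error changed direction. For levels, these values compare only the highest library with the second and with the lowest. Other pairs were not among them and could also turn, as lung and kidney did at the 18S end, at 2943 and 3547 CPM under median ratio scaling. Counting each distinct sequence once leaves few sequences per end. These differ only in length or by a base change, so such values at single ends count tag variants. With each sequence once, lung over brain at Rn45s became 0.940 and the liver ratio of start end to 18S end 1.13, both past 1 in the other direction. Lung over ovary at Rn45s, not distinguishable from 1 before, also passed to the other side, at 0.726, and so did its value without 2-location sequences. With each sequence once, start end ovary over lung was 2.76 and ovary over brain 3.49, 18S end liver over lung 1.41 and liver over spleen 2.32, and start end over 18S end 1.15 in lung and 6 in spleen. The spacer share, both spacers together, became 13.2% in spleen, 10.3% in ovary, 28.4% in lung, 7.25% in kidney and 7.48% in liver, a measure that depends on depth. Without sequences listed at 2 locations, lung over ovary was 0.938, lung over brain 4.38, and the spacer share 3.70% in lung, 3.14% in liver and 1.76% in kidney. The 18S end then had 0 tags in every library and gave no value. Scaling by the median ratio over 58 windows, which set library totals at 0.797 (kidney) to 1.22 (ovary) times the tag total, gave lung over brain 1.99 and 18S end liver over lung 1.50. Within 2 nt, start end over 18S end was 2.67 in lung, 0.538 in liver, 0.688 in kidney and 5.07 in ovary. Without lung in the pool, 32.7% of ends were higher in liver and 30.4% in kidney, and with a minimum of 50 tags 4.94% in ovary. For a cause beyond the setting itself, the cause was not tested. No paired analysis was possible because each tissue has 1 library. Depth limits brain, ovary and spleen most, where the spacers held 2, 7 and 7 tags.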
